A study of Homo sapiens with 6 samples.

Results

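The genes described here are SLC38A12 and SLC33A2, a pair of solute carrier genes measured in A549, a human cell line derived from a lung adenocarcinoma. They were chosen by symbol. A gene was taken when its name in the platform annotation was SLC followed by a family number from 1 to 39, other than the mitochondrial carrier family 25, then A and a member number. This pattern found 2 of the 14884 genes that the annotation names. A gene counted as named where at least 1 probe set named it and no other gene. Among the human genes of NCBI RefSeq 259 have such a symbol, and 257 of them, with all carriers of glucose, ions, metals and nucleosides, were not named by the annotation and are not analysed here. The values below are therefore those of 2 genes and do not describe the solute carrier superfamily.

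Cells were kept for 7 days in 2D culture on attachment plates, in DMEM with 10% FBS. The LA717 group (3 arrays) received 0.03% (w/v) LA717, an agar of low molecular weight added to keep cells apart in suspension, and the control group (3 arrays) received Milli-Q water in its place. One label of the LA717 arrays names low-attachment plates, whereas their titles, descriptions and treatment protocol name attachment plates. Nothing in the labels says that the 3 samples of a group were separate cultures, and the study speaks of independent experiments for its arrays of 2D against 3D culture without naming 2D culture with LA717. The p-values and intervals below therefore rest on the spread between these samples, which may be technical.

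Solute carriers are membrane proteins that move small molecules such as amino acids, sugars, ions and nucleosides across cell membranes. Some carriers do so down a gradient and some by coupling to the movement of an ion. Tumour cell lines depend on many of them for nutrient uptake. SLC38A12, long known as TMEM104, is placed by its symbol in the SLC38 family, whose well-studied members take up neutral amino acids together with sodium. SLC33A2, long known as MFSD3, is a protein of the major facilitator type, placed by its symbol beside SLC33A1, the carrier of acetyl-CoA into the endoplasmic reticulum. No substrate of either protein is stated by the labels or the study.

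The arrays had medians between 3.19 and 3.23 (log2 intensity over 53617 probe sets), and any pair of arrays had an r of 0.9899 to 0.9913. With 3 arrays per group, the precision of the values below is limited by their number. The epithelial marker genes that the annotation named (6 of 7) had values between 3.80 (CLDN4) and 11.2 (KRT18). EPCAM lay between 7.03 and 7.32 on the 6 arrays. Of the 12 markers listed for other cell types 5 were named. DCN, a fibroblast gene, lay between 1.53 and 1.84, and PECAM1, VWF and CLDN5, which are endothelial, between 2.58 and 4.95. CD14, a monocyte gene, lay between 7.42 and 7.98. None of these markers passed the test between the groups.

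The question put to these arrays was whether the agar alters transcription when cells remain attached. SLC38A12 and SLC33A2 both gave overlapping values in the 2 groups, and neither passed the test. At an adjusted p under 0.05 by limma, 0 of 2 genes were called, beside 0% of the 53617 probe sets tested, and at an unadjusted p under 0.05 there were 0 of 2, beside 5.31% of the probe sets. A difference of at least 2-fold was seen in 0 of 2, beside 0.162% of the probe sets. Groups that did not overlap were seen in 0 of 2, beside 11.1% of the probe sets. With 2 genes such counts of 0 say little, and the intervals of the differences carry the result.

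SLC38A12 was at 7.86, 7.84 and 8.001 in control replicates 1 to 3 and at 7.97, 7.97 and 7.72 in LA717 replicates 1 to 3 (log2 intensity). The highest array was control replicate 3 and the lowest LA717 replicate 3, while LA717 replicates 1 and 2 fell inside the range of the controls. The group means were 7.90 ± 0.089 in control and 7.89 ± 0.14 with LA717 (SD, n = 3). The difference, LA717 minus control, was −0.012 on the log2 scale (SE 0.11), with a 95% interval from −0.26 to 0.24 and a limma adjusted p of 0.996. As a ratio the interval ran from 0.836 to 1.18, so a 1.5-fold or 2-fold change of the measured intensity in either direction lay outside it.

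SLC33A2 was at 6.61, 6.40 and 6.89 in control replicates 1 to 3 and at 6.75, 6.84 and 6.55 in LA717 replicates 1 to 3 (log2 intensity). The controls held both the lowest and the highest value, and all 3 LA717 arrays lay between them. The group means were 6.63 ± 0.25 in control and 6.71 ± 0.15 with LA717 (SD, n = 3). The difference was 0.081 on the log2 scale (SE 0.15), with a 95% interval from −0.26 to 0.42 and a limma adjusted p of 0.972. This interval corresponds to ratios from 0.835 to 1.34, and it too leaves out a 1.5-fold and a 2-fold change of the measured intensity. It uses a variance that limma draws partly from all probe sets. The gene's own pooled SD (0.204) was larger than that of 93.8% of genes of like intensity. Whether the 2 genes differed from each other in response was not tested.

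**Figure D1:**
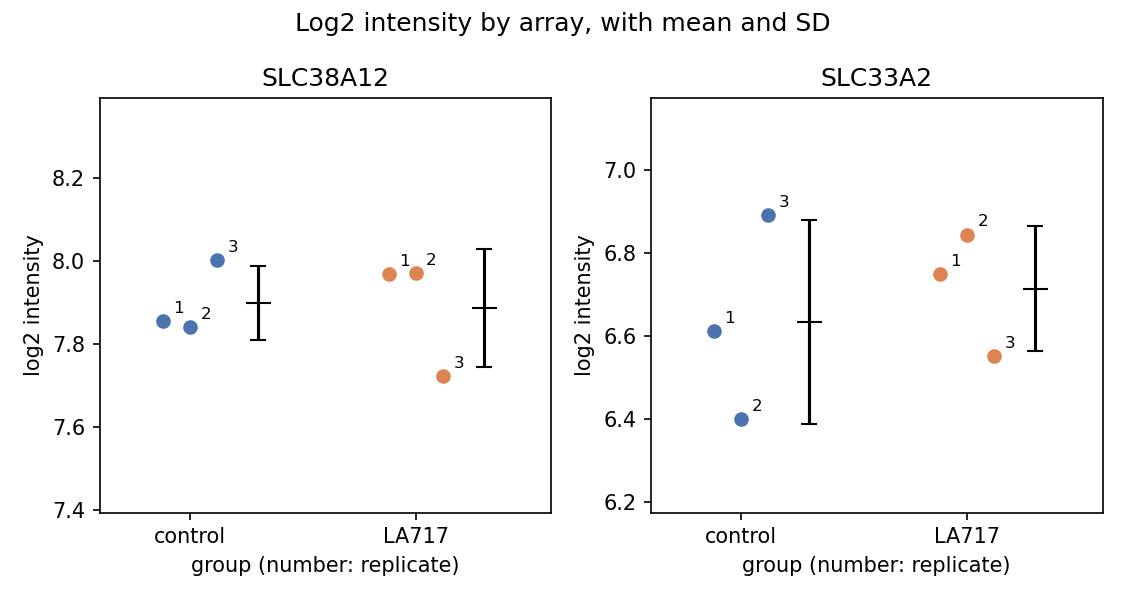
Log2 intensity of SLC38A12 (left) and SLC33A2 (right) on each array, by group, with the replicate number beside each point and the mean and SD (n = 3) as bars to the right of the points; both vertical axes span 1 log2 unit. The groups overlap for both genes, with control replicate 3 the highest of the 6 arrays in each panel.

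The spread between arrays was above the median of genes of like intensity for both genes. The pooled SD within groups was 0.119 for SLC38A12, where the median of the 586 other genes with a mean within 0.25 log2 units of its own was 0.0860, and 76.3% of those genes had a smaller SD. For SLC33A2 it was 0.204, against a median of 0.101 over 976 such genes, of which 93.8% had a smaller SD. In SLC33A2 the 3 control arrays spanned 0.49 and the LA717 arrays 0.29, both wider than the difference between the group means. In SLC38A12 the spans were 0.16 and 0.25.

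The sign of each difference rested on single arrays. The difference of SLC38A12 turned positive without control replicate 3 (0.040) and without LA717 replicate 3 (0.071), and lay between −0.053 and 0.071 over the 6 fits that each lack 1 array. The difference of SLC33A2 turned negative without control replicate 2 (−0.036), and lay between −0.036 and 0.21 over the same fits, the upper end being reached without control replicate 3. None of these fits with 1 array left out gave an unadjusted limma p under 0.05 for either gene. No direction is therefore given for them.

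**Figure D2:**
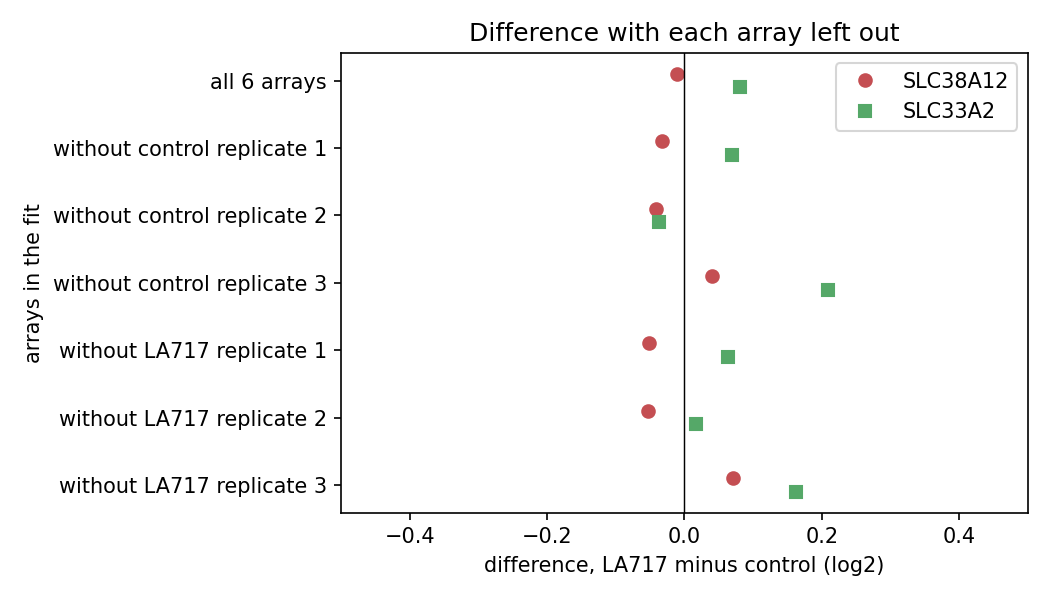
Difference LA717 minus control (log2, horizontal axis) of SLC38A12 (circles) and SLC33A2 (squares) with all 6 arrays and with each array left out in turn (vertical axis). SLC38A12 crosses 0 without control replicate 3 or LA717 replicate 3, and SLC33A2 crosses 0 without control replicate 2.

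The 2 genes shared part of their order across the arrays. Control replicate 3 was the highest array for both, and LA717 replicate 3 was the lowest LA717 array for both. This relation was computed after that order had been seen, so it is given as a description. Permutation p-values were computed for it but are not used for that reason. It is the 1 pair that 2 genes allow. Over the 6 arrays Pearson's r was 0.802 and Spearman's rho was 0.943. After subtraction of the group means r was 0.841. Leaving out the 2 arrays farthest from the median of SLC38A12, which were LA717 replicate 3 and control replicate 3, gave an r of 0.907 over 4 arrays. In those 4 arrays both LA717 values of each gene lay above both control values. That r therefore mixes the offset between the groups with the relation within them, and cannot show whether the relation holds without the extreme arrays. Each pair of values comes from the same array and hence shares its RNA, labelling and scan, and 1.96% of the 14883 other genes had an r with SLC38A12 at least as high over these arrays (4.74% when r of either sign is counted by its size). The part of RNA quality or labelling in this relation was not tested.

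Outside the pattern, the annotation named 20 more protein-coding genes with an SLC symbol, among them members of the SLC66 and SLC71 families. They also include SLC25A2 and SLC25A15 of the mitochondrial carrier family that the pattern left out. This set was formed after the data had been seen and serves as a setting for SLC38A12 and SLC33A2. Of the 20 genes 0 passed an adjusted p under 0.05 by limma and 2, SLC35F6 and SLC67A2, had an unadjusted p under 0.05, beside 5.31% of all probe sets. The groups did not overlap in 5 of the 20, beside 11.1% of all probe sets, with SLC35F6, SLC67A2 and SLC49A4 lower and SLC9D1 and SLC68A1 higher on the LA717 arrays. Their differences were positive in 5 and negative in 15, with a median of −0.034, where the median over all 14884 genes was −0.0061. The differences of SLC38A12 and SLC33A2 lay inside the range of this set, which ran from −0.26 for SLC35F6 to 0.095 for SLC60A2. SLC35F6 was at 9.26, 9.26 and 9.36 in control and at 8.94, 9.02 and 9.15 with LA717 (log2 intensity, replicates 1 to 3), and its limma adjusted p was 0.92.

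**Figure D3:**
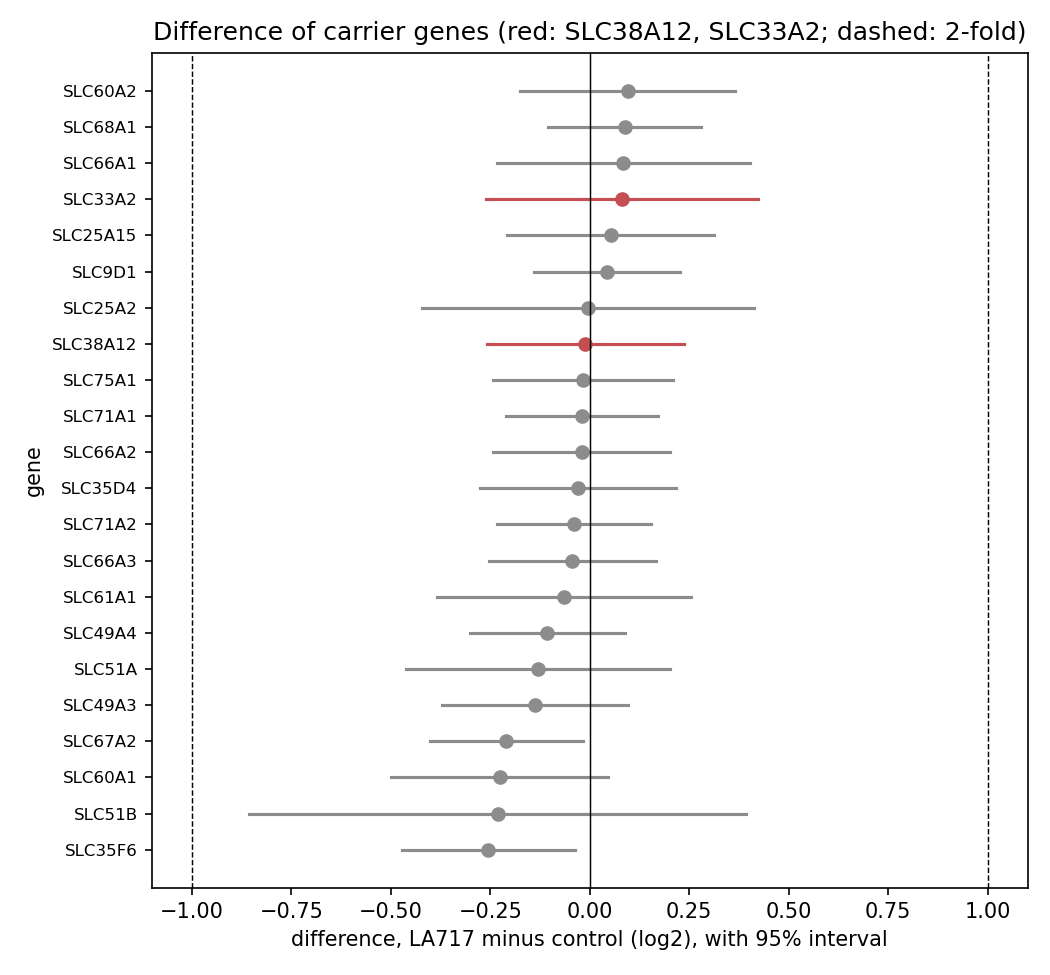
Difference LA717 minus control (log2, horizontal axis) with its 95% interval for SLC38A12 and SLC33A2 (red) and the 20 other protein-coding SLC genes (grey), ordered by the difference; dashed lines mark a 2-fold change. Each of the 22 intervals lies between the dashed lines.

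Lists of related genes were sparsely named by the annotation, and genes it did not name may still have probe sets on the array. Of the carriers known to be induced by the transcription factor ATF4, 0 of 8 were named by the annotation, and so were 0 of 3 hypoxia-induced and 0 of 4 osmolyte carriers. Of 36 further SLC genes listed, 4 were named, which also belong to the 20 above. All 4 had a negative difference that did not pass the test, from −0.11 for SLC49A4 to −0.23 for SLC51B. SLC51B is a subunit of the organic solute and bile acid exporter. Among 25 partners and regulators of carriers 17 were named, 8 with a positive and 9 with a negative difference and a median of −0.0062. Of the 17 genes 0 passed an adjusted p under 0.05 by limma. An unadjusted p under 0.05 was seen in 1 of the 17, beside 5.31% of all probe sets. That gene was WNK4, a kinase gene of salt transport, at 3.77, 3.78 and 3.97 in control and 3.58, 3.60 and 3.48 with LA717. Its limma adjusted p was 0.92, and its groups did not overlap, which was seen in 11.1% of all probe sets. Both WNK4 and SGK1 lay below 4.62, the median level of probe sets that name 1 gene. SGK1, a kinase that acts on many epithelial carriers, differed by −0.22, the lactate dehydrogenase gene LDHA by 0.086 and the kinase gene OXSR1, which acts on cation-chloride cotransporters, by −0.077. ATF4 itself differed by −0.0062 and BSG, the chaperone of monocarboxylate carriers, by 0.012.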

How the data were processed

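Total RNA of 6 A549 samples was analysed on GeneChip Human Gene 2.0 ST arrays. The deposited table holds a log2 value for each probe set on each array, made by the authors in Affymetrix Expression Console. The version, the summarisation and normalisation method and the genome build were not given in the sources used here, and coordinates were left out. The range of the values showed a log2 scale, and no further normalisation was applied.

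Gene names came from the platform annotation, which named 1 gene for 16098 probe sets and none or several for 37519. Where several probe sets named a gene, that of highest mean (6 arrays) stood for it, and SLC38A12 and SLC33A2 had 1 probe set each. LA717 minus control was fitted over all 53617 probe sets by lmFit and eBayes of limma 3.58.1 (R 4.3.3), with two-sided tests adjusted by Benjamini-Hochberg at a threshold of 0.05, a step tested on simulated data. In the methods of the study, genes were selected by a 2-fold change, with no test named for the arrays. Sample titles gave the groups and replicate numbers. Genes were named by a rule on level, difference and a list of carriers, which both genes met, and from each gene list up to 4 genes with the greatest difference in size. ATF4, BSG, SLC35F6, SLC60A2, SLC67A2, SLC9D1, SLC68A1, SLC25A2, SLC25A15, EPCAM and the single marker genes were named outside this rule, after their values were seen. The members and lists were chosen with earlier results of these data known. Alternatives were an intensity trend with robust variance, array weights, a block for the replicate number, quantile normalisation, median centring, fewer probe sets, averaging the probe sets of each gene and leaving out each array. Plots were made in Python 3.11.15 (matplotlib 3.10.9).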

Additional observations from a re-analysis of the deposited data

How the results depend on the processing

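With limma at an adjusted p under 0.05, the number of probe sets called was 0 under all 14 alternatives, 3 of which test fewer features than the 53617 probe sets, and 0 of the 2 genes were called. The difference of SLC38A12 (−0.012 with all arrays) ran from −0.015 to −0.0033 under the 8 alternatives that keep all arrays, and from −0.053 to 0.071 when single arrays were left out, reversing without control replicate 3 (0.040) and without LA717 replicate 3 (0.071). That of SLC33A2 (0.081) ran from 0.078 to 0.10 and from −0.036 to 0.21 in the same order, reversing without control replicate 2 (−0.036). Why these arrays stood where they did was not tested. Deviations from the group means of same-numbered arrays correlated at 0.024, 0.015 and 0.033 over all probe sets. Noise of single probe sets lowers such values, so they cannot decide whether the numbers are pairs. The sample titles give only the number, and the main fit did not pair the arrays. With the replicate block the differences were −0.012 and 0.081, the counts of calls stayed at 0, and no call changed. Signal over background is not recorded in the values, and the intervals bound the measured intensity and not the transcript.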
